A study of Mus musculus with 14 samples.

Results

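Agrin and the proteins through which it organizes the neuromuscular synapse were described by 5 genes taken by symbol, *Agrn*, *Lrp4*, *Musk*, *Dok7* and *Rapsn*, out of 19215 genes with an RNA-seq value. Their cassette exons, internal exons that a transcript either includes or skips, were taken by NCBI gene ID and gave 13 entries out of 13189 in the series. *Agrn* had 10 of these entries (8 different exons), *Musk* had 2 and *Rapsn* had 1, whereas *Lrp4* and *Dok7* had none. The study asked where NOVA, a neuronal RNA-binding protein that regulates alternative splicing, binds RNA in motoneurons (MNs) compared with whole spinal cord (WSC). NOVA binding was measured by HITS-CLIP, in which RNA crosslinked to the protein by ultraviolet light is immunoprecipitated and sequenced, so that each unique tag marks a bound fragment. The 8 MN libraries came from C57BL/6 mice aged 3 months and hemizygous for a bacterial artificial chromosome in which *Chat* regulatory sequence drives AcGFP-tagged NOVA2. They came from 2 transgenic lines, #6 and #17, with 4 libraries each, spinal cords of several mice pooled per library, and antibodies to GFP. The 4 WSC libraries came from wild-type C57BL/6 mice aged 3 months, 1 mouse each, with human serum against endogenous NOVA1 and NOVA2. RNA-seq was available for 2 WSC libraries, 1 male and 1 female, from B6/SJL mice aged 12 weeks that carry a human wild-type SOD1 transgene. MN and WSC CLIP therefore differed in the tagged protein, antibody, pooling and RNA content, which cannot be told apart in their comparison. For any gene, more tags can also mean more RNA in the captured cells.

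Agrin is a heparan sulphate proteoglycan that motor nerve terminals release into the synaptic basal lamina. On the muscle side it binds LRP4, which activates the receptor tyrosine kinase MuSK. DOK7 is the cytoplasmic adaptor that activates MuSK from within, and rapsyn is the scaffold that anchors acetylcholine receptors in clusters. Neurons include short exons at the y and z sites near the 3′ end of *Agrn*. The z inserts give agrin its high activity in clustering receptors, and *Agrn* is a known NOVA target.

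The exons of the y and z sites are shown first, because inclusion and NOVA tags are described around them. *Agrn* lies on the minus strand of chromosome 4 (mm9 chr4:155539399-155571536). The y exon has 12 nt (chr4:155543655-155543666), and the z exons have 24 nt (chr4:155542655-155542678) and 33 nt (chr4:155541886-155541918). In the annotation each of the 3 is a coding exon in at least 1 transcript. The sequences are on the transcript strand, with the exon in capitals and 30 nt of intron on each side.
Agrn 12-nt exon: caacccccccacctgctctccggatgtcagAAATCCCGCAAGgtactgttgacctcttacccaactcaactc
Agrn 24-nt exon: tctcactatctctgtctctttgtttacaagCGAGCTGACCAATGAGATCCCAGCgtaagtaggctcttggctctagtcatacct
Agrn 33-nt exon: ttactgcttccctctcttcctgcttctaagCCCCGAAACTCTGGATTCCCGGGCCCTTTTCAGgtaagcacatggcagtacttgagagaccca

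NOVA binds the RNA tetramer YCAY, where Y is a pyrimidine. In the DNA letters used here, TCAT matches it, as does the form TCAC. With the other pyrimidine first, CCAT matches too, as does the form CCAC. None of the 3 exons held 1 of these tetramers. The intronic stretch of 150 nt with the most tags over all 12 libraries was found for *Agrn* and for *Dok7*, and is shown with every YCAY on the transcript strand in capitals, overlapping matches included. That of *Agrn* (chr4:155542029-155542178, minus strand) lies in the intron of 736 nt between the z exons, 476 nt after the 24-nt exon and 110 nt before the 33-nt exon. That of *Dok7* (chr5:35420537-35420686, plus strand) lies in an intron of 1763 nt.
Agrn intron: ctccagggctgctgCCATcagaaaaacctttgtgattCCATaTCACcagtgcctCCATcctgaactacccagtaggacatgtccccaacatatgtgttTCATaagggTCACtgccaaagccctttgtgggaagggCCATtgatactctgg
Dok7 intron: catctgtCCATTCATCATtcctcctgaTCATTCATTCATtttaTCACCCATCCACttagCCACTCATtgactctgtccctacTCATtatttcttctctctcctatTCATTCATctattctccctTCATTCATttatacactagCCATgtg

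The *Agrn* stretch held 7 YCAY tetramers and the *Dok7* stretch held 17. Of 53034 intronic stretches of the same length next to cassette exons, 88.8% held at least 1, with a median of 2. At least 7 were found in 2.13% of them, and at least 17 in 0.0302% (16 stretches). In the *Agrn* stretch lay 13 of the 62 MN tags of the gene (21.0%), from 6 of 8 libraries, and 65 of its 423 WSC tags (15.4%), from 4 of 4 libraries. In the *Dok7* stretch lay 8 of 28 MN tags (28.6%), from 4 of 8 libraries, and 32 of 226 WSC tags (14.2%), from 4 of 4 libraries. Both stretches were chosen for their tags, so these shares and the standing of their YCAY counts among other stretches are a description and no test. *Dok7* had no cassette exon entry, and its stretch lies 620 and 993 nt from the exons on either side. It is thus unlike the stretches next to cassette exons that it is set against.

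RNA levels in WSC separated the ligand, the receptor and the adaptor from the kinase and the scaffold. RPKM is the number of reads per kilobase of exon, scaled to 1000000 reads on genes. *Agrn* had 12.1 RPKM in the male and 10.2 in the female library (11.2 ± 1.35, SD, n = 2), which placed it at percentiles 72.1 and 68.9 of all genes. *Dok7* followed with 5.98 and 6.48 RPKM (6.23 ± 0.350, SD, n = 2). *Lrp4* had 4.69 and 4.35 RPKM (4.52 ± 0.242, SD, n = 2). These 3 genes kept this order in both libraries, and the values of neighbours did not overlap. *Rapsn* was far lower, with 0.216 and 0.114 RPKM from 25 and 12 reads. *Musk* was lowest, with 0.0163 and 0.0269 RPKM from 4 and 6 reads. The 95% Poisson interval of the *Musk* reads reached from 1.09 to 10.2 in the male and from 2.20 to 13.1 in the female library, and like all intervals here covers counting error only.

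**Figure D1:**
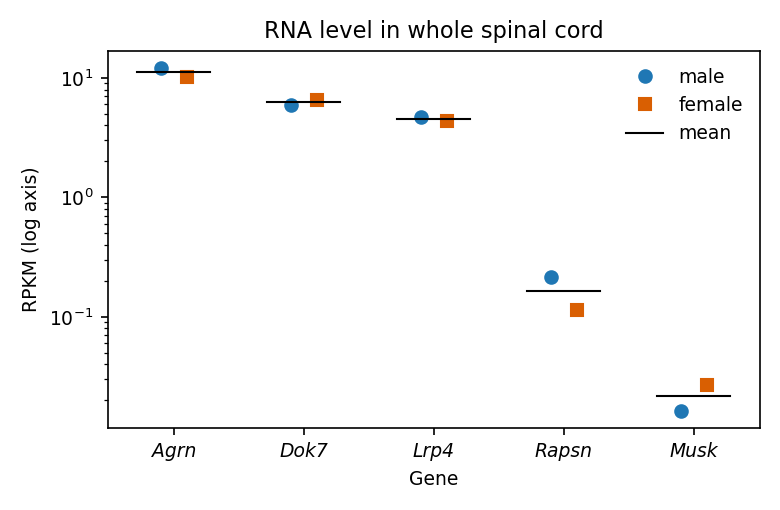
RNA level of the 5 genes in the male and the female WSC library, in RPKM on a log axis; the bar is the mean of both. *Agrn*, *Dok7* and *Lrp4* lie between 4.35 and 12.1 RPKM, and *Rapsn* and *Musk* lie at or below 0.216 RPKM.

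Between the libraries, *Agrn* was 1.19-fold higher in the male, *Lrp4* 1.08-fold higher and *Dok7* 0.924-fold of the female level. None of these 3 differed by 1.5-fold, a difference found in 3.92% of the 11940 genes with a mean of at least 1 RPKM. *Rapsn* differed by 1.90-fold, but the intervals of its reads overlapped (16.2 to 36.9 and 6.20 to 21.0). With 1 library of each sex, no test of sex was possible.

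Genes that mark skeletal muscle were low in the same libraries. A link to the levels of the 5 genes was not tested. The 8 muscle markers summed to 2.24 RPKM in the male and 2.50 in the female library, and 1 of them, *Mylpf*, a fast myosin light chain, reached 1 RPKM. None of the 5 subunit genes of the muscle acetylcholine receptor reached a mean of 1 RPKM over both libraries, which is how all counts at 1 RPKM were made. *Chrnb1* was highest, with 0.844 and 1.05 RPKM. *Chrna1* had 31 and 18 reads. *Chrne* had 0.122 and 0.0575 RPKM, *Chrng* was at 0 in the male library and at 0.00530 in the female, and *Chrnd* was listed at 0 in both. By contrast, 6 of 7 motoneuron markers reached 1 RPKM, among them *Chat*, which makes acetylcholine, with 9.20 and 10.4 RPKM. In bulk tissue, fewer cells of a type and less RNA per cell cannot be told apart.

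By their junction reads, some of the 8 *Agrn* exons were nearly always included and others were skipped in most reads, while the y and z exons are described apart from these below. The inclusion rate divided the average of the counts on both inclusion junctions by the same average with the skipping reads added, and is given with a 95% Wilson interval. The 117-nt exon and the 97-nt exon had no skipping read in either library, so their rates were 100%. The 128-nt exon had 100% in the male and 96.3% in the female library, where 1 read skipped it. The 87-nt exon had 0% in the male and 11.6% (3.67 to 31.2%) in the female library, from 5 reads that all lay on 1 of its inclusion junctions. The 133-nt exon had 0% in both. The 87-nt exon also had 23 and 20 reads within its body, and when these were counted as inclusion its rates were 33.3% and 56.8%, and those of the 133-nt exon were 23.1% and 2.33%. The 133-nt exon was the only one of the 8 whose ends match no annotated exon, and the 87-nt exon was not annotated as wholly coding in any transcript.

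The y exon was mostly included. It had 48 and 73 reads on its inclusion junctions and 12 skipping reads in the male library, a rate of 83.4% (73.3 to 90.3%). In the female library it had 32 and 41 inclusion reads and 4 skipping reads, a rate of 90.1% (77.2 to 96.1%). Over both libraries the y exon averaged 86.8% ± 4.72 (SD, n = 2), and the intervals of the libraries overlapped.

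The z site was described by its 6 possible junctions. From the exon before it, 30 of 42 reads of the male library (71.4%, 56.4 to 82.8%) went to the 24-nt exon, none went directly to the 33-nt exon and 12 skipped both. In the female library 67 of 77 reads (87.01%, 77.7 to 92.8%) went to the 24-nt exon, again none to the 33-nt exon, and 10 skipped both. A transcript that took the 33-nt exon without the 24-nt exon was thus not detected at this depth: 0 of 42 and 0 of 77 reads allow shares of up to 7.14% and 3.90% (3 reads of each total).

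**Figure D2:**
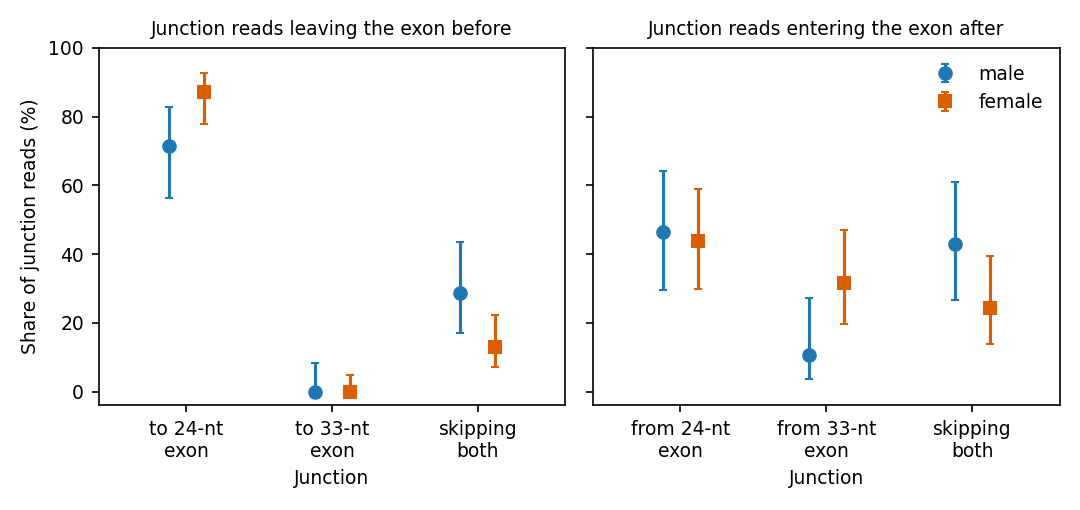
Share of the junction reads at the z site of *Agrn*, leaving the exon before it (left) and entering the exon after it (right), in the male and the female WSC library, with 95% Wilson intervals. The junction from the exon before to the 33-nt exon is at 0 in both libraries, and the junction to the 24-nt exon has 71.4% and 87.01%.

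From the 24-nt exon, 7 of 20 reads in the male library (35.0%, 18.1 to 56.7%) went on to the 33-nt exon, and 21 of 39 in the female library (53.8%, 38.6 to 68.4%). The others joined the 24-nt exon to the exon after the z site. Into that exon, 28 reads led in the male library, of which 13 came from the 24-nt exon (46.4%), 3 from the 33-nt exon (10.7%) and 12 from the exon before the z site (42.9%). Of 41 such reads in the female library, 18 came from the 24-nt exon (43.9%), 13 from the 33-nt exon (31.7%) and 10 from the exon before (24.4%). The female library had the lower share of reads that skip both exons at either end, and the intervals of the libraries overlapped at both ends.

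**Figure D3:**
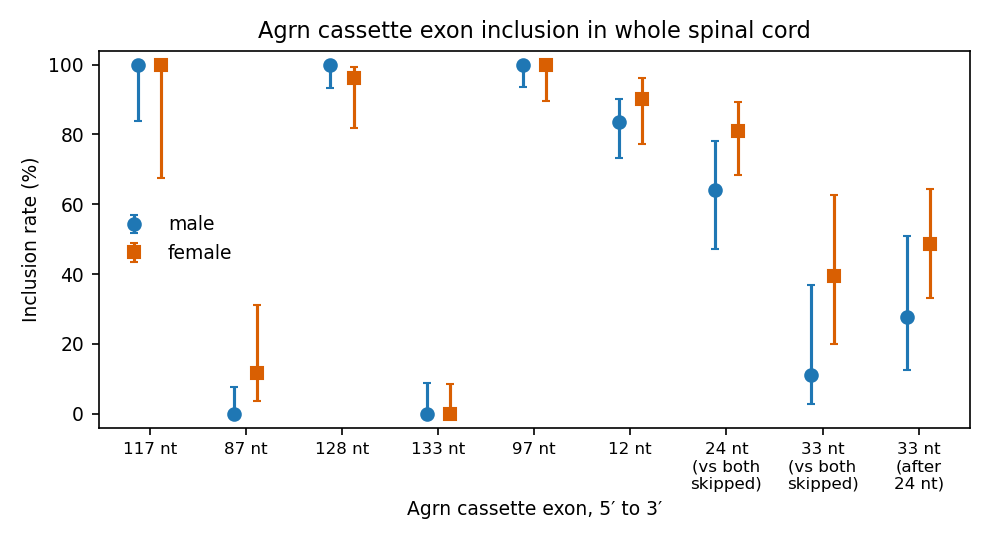
Inclusion rate of the *Agrn* cassette exons in the order of the transcript, in percent, for the male and the female WSC library, with 95% Wilson intervals; the 33-nt exon is shown against skipping of both z exons and after an included 24-nt exon. The y exon of 12 nt is at 83.4% and 90.1%. The 24-nt exon, without its reads to the 33-nt exon, is at 64.2% and 81.0%.

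As cassette exon entries, the 24-nt exon had 64.2% and 81.0% against skipping of both, and the 33-nt exon had 27.8% and 48.6% after an included 24-nt exon. The 24-nt entry leaves out the 7 and 21 reads from the 24-nt to the 33-nt exon. It thus counts transcripts with both z exons only in part. Against skipping of both exons, the 33-nt exon had 11.1% and 39.4%, all of it from reads that leave the exon, since none entered it from the exon before the z site. All 10 *Agrn* entries had the 10 junction reads per library needed for Fisher's exact test between the libraries, and 0 of 10 passed at FDR 0.1 (adjusted by Benjamini-Hochberg over 9396 entries), where 4.26% of all entries tested did. This test also counts reads within the exon body as inclusion, unlike the rates above. The 33-nt entry after the 24-nt exon had FDR 0.884 and the 24-nt entry 0.425. From junction reads alone, Fisher's exact test gave them FDR 0.690 and 0.599. Without adjustment, 2 of the 10 entries had a p under 0.05, those of the 133-nt exon (0.00515) and the 87-nt exon (0.0191). With junction reads only, the 87-nt exon had FDR 0.104 and the 133-nt exon FDR 1. The 133-nt exon had 12 reads within its body in the male library and none on its inclusion junctions. This test compares 2 libraries, not the sexes. The *Musk* exons of 30 nt and 24 nt had 0 junction reads in both libraries, and the *Rapsn* exon of 159 nt had 1 in the male and 0 in the female library, so their inclusion could not be measured at this depth.

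CLIP depth set what could be compared. The MN libraries held between 51992 and 701636 tags on genes, on the strand of the gene, and the WSC libraries between 1816482 and 5083500. Labels were checked with *Chat* and *Chodl*, motoneuron genes, which were higher in MN by 3.08 and 2.48 on the log2 scale, and with *Slc6a5*, the glycine transporter of inhibitory neurons, which fell by 4.35 (edgeR quasi-likelihood test, all 3 at FDR 3.4e-14 or below). The read names place replicates 3 and 4 of both lines and all WSC libraries on 1 sequencing run.

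*Agrn*, the ligand, carried NOVA tags in all 12 libraries. Scaled to 1000000 tags on genes (CPM), the line 6 libraries had 118, 42.6, 39.4 and 72.6, from 9, 3, 13 and 13 tags. Line 17 had 57.7, 7.79, 14.5 and 27.1 CPM, from 3, 1, 1 and 19 tags. The WSC libraries had 32.5, 32.1, 24.9 and 28.6 CPM, from 91, 163, 117 and 52 tags. Each line 6 library lay above all WSC libraries, whereas the line 17 libraries lay on both sides of them.

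**Figure D4:**
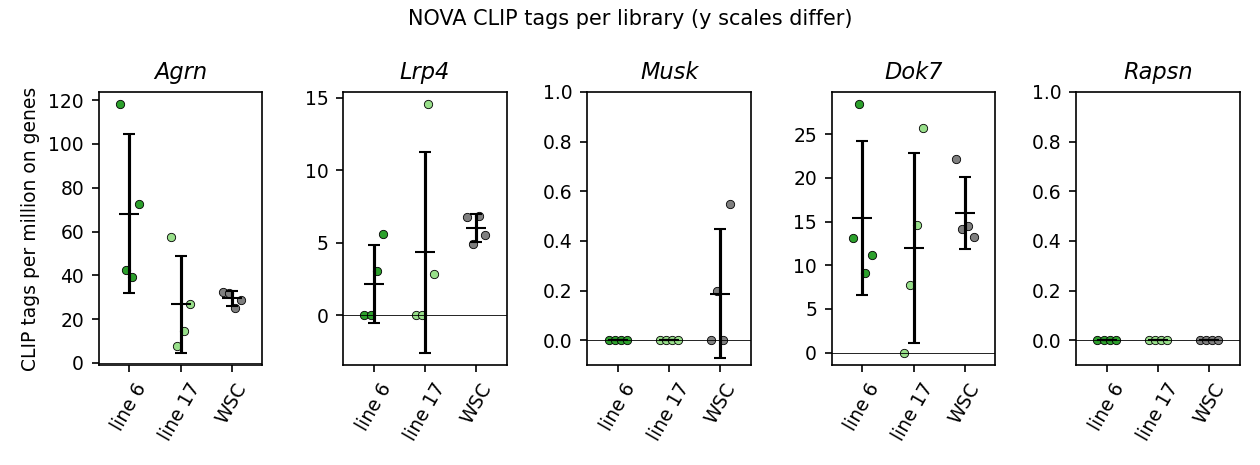
NOVA CLIP tags in CPM for each gene and library, with the mean and SD of the 4 libraries of line 6, line 17 and WSC; the y scales differ. *Agrn* lies above the WSC range of 24.9 to 32.5 in all line 6 libraries, of which replicate 2 rests on 3 tags, and *Rapsn* is at 0 everywhere. Counting error of single libraries is not drawn.

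Over both lines, *Agrn* was 0.48 ± 0.25 (SE) higher in MN than in WSC on the log2 scale, which did not pass (edgeR, FDR 0.0992, threshold 0.01), where 56.7% of the 4654 genes tested did. It was the only 1 of the 5 genes that passed the filter on low counts. Within the single sequencing run the difference was 0.37 (FDR 0.218), and each library left out in turn gave 0.31 to 0.66 (FDR 0.0374 to 0.538). Taken alone, line 6 was 1.09 ± 0.32 (SE) above WSC (edgeR, FDR 0.00586), in a contrast in which 20.1% of genes passed as higher. This call was lost without line 6 replicate 1 (0.85, FDR 0.0369), line 6 replicate 4 (0.94, FDR 0.05001), WSC replicate 3 (0.98, FDR 0.0161) or WSC replicate 4 (1.07, FDR 0.0114), each in edgeR. It was also lost within the single sequencing run (0.84, FDR 0.0459) and with same-start tags counted once (0.76, FDR 0.0482). Line 17 alone stood at -0.14 ± 0.36 (SE) relative to WSC (FDR 0.758), in a contrast in which 44.6% of genes passed in either direction. The difference between the lines was itself 1.23 ± 0.43 (SE) on the log2 scale, with an unadjusted p of 0.00895 and FDR 0.925 in edgeR. No gene passed between the lines (0%). DESeq2 called 1 gene, which was not *Agrn* (DESeq2 FDR 0.676), and edgeR gave 224 of the 4654 genes an unadjusted p under 0.05. The lines are thus not shown to differ in *Agrn*. With same-start tags counted once, the difference over both lines was 0.16 (FDR 0.601). The genes whose centred log2 CPM was most like that of *Agrn* over the 12 libraries were *Abhd3*, *Ltn1* and *Rab7*, with root-mean-square differences of 0.510, 0.554 and 0.555.

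Within *Agrn*, the tags gathered in the terminal exon and in the intron between the z exons. The terminal exon, most of which is 3′ UTR (chr4:155539399-155540762), held 15 of 62 MN tags (24.2%) and 196 of 423 WSC tags (46.3%). The intron between the z exons held 20 MN tags (32.3%, Wilson interval 22.0 to 44.6%) and 86 WSC tags (20.3%, 16.8 to 24.4%). The WSC libraries were close to each other, with 17.6, 17.2, 25.6 and 23.1% of their *Agrn* tags in this intron. In line 6 it held 5 of 9, 1 of 3, 4 of 13 and 6 of 13 tags, and in line 17 0 of 3, 0 of 1, 1 of 1 and 3 of 19. Pooled, line 6 had 42.1% (27.9 to 57.8%) and line 17 had 16.7% (6.68 to 35.9%). The exons of 24, 33 and 12 nt held no tag midpoint in any library.

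**Figure D5:**
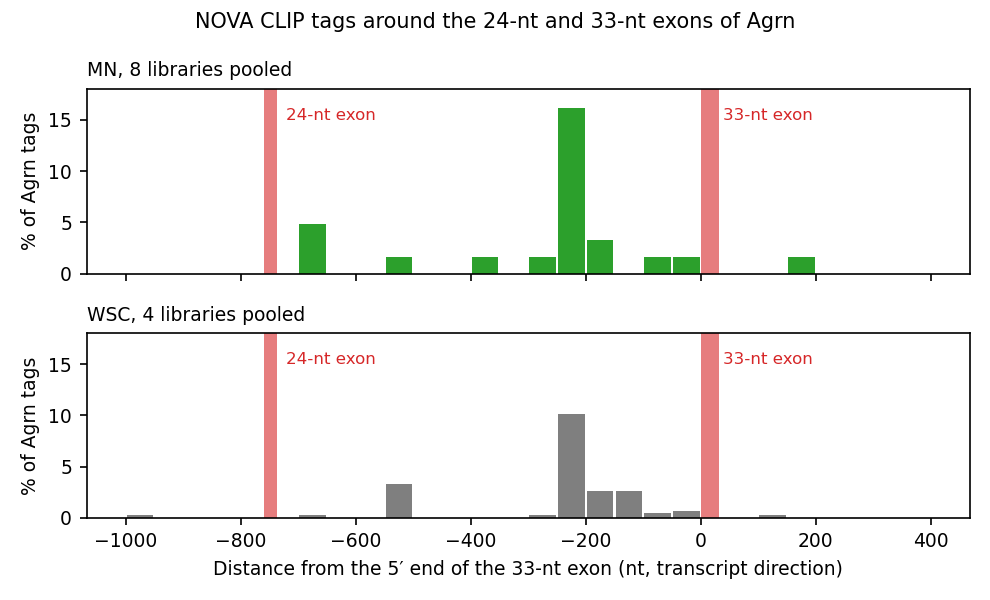
Share of all *Agrn* CLIP tags per 50 nt, in percent, by distance from the 5′ end of the 33-nt exon in the direction of the transcript, for the pooled MN and WSC libraries; red bands mark the z exons. In both, the highest bar lies 201 to 250 nt before the 33-nt exon, with 16.1% of MN tags and 10.2% of WSC tags.

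The highest bin of the profile lay 201 to 250 nt before the 33-nt exon in both sources, with 10 MN and 43 WSC tags. A second group of 14 WSC tags and 1 MN tag lay 501 to 550 nt before it. The bin 651 to 700 nt before it, on the side of the 24-nt exon, held 3 MN tags and 1 WSC tag. The bin 701 to 750 nt before it, which reaches into the 24-nt exon, held 0 tags of either.

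Shares of tags within *Agrn*, which do not depend on how many tags the gene has, were compared over the libraries with at least 10 tags on it. These were 3 MN libraries and 4 WSC libraries, all of the same sequencing run. Within 500 nt of its cassette exons lay 46.2, 69.2 and 26.3% of the tags of the MN libraries (47.2% ± 21.5, SD, n = 3) and 25.3, 22.7, 32.5 and 28.8% of those of WSC (27.3% ± 4.26, SD, n = 4). The difference of 19.9 percentage points between the means over libraries did not pass the exact permutation test (two-sided p = 0.171), and 1 MN library lay within the WSC range. With 3 against 4 libraries this test can give no p below 0.0571, so it could not reach 0.05. In windows of 200 nt the shares were 25.8% ± 8.65 (SD, n = 3) in MN and 10.3% ± 0.917 (SD, n = 4) in WSC. The exact permutation p was then 0.0571, and with windows of 1000 nt it was 0.286. In exons lay 38.5, 38.5 and 47.4% in MN (41.4% ± 5.14, SD, n = 3) and 62.6, 62.6, 61.5 and 51.9% in WSC (59.7% ± 5.19, SD, n = 4). Here the groups did not overlap, and the exact permutation p of 0.0571 (two-sided) is the smallest that 3 against 4 libraries can give. *Agrn* was the only gene of the 5 with enough libraries for these tests. With no minimum of tags, the exonic share of *Agrn* was 13.6 percentage points lower in 8 MN than in 4 WSC libraries (exact permutation p = 0.428). In the paper, MN CLIP reads of all genes together were also less exonic and more intronic than those of WSC.

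For the windows of 500 nt around each cassette exon, pooled tags were set against the rest of the gene with Fisher's exact test. It ignores the spread between libraries and, in MN, between the lines. The window of the 33-nt exon held 27.4% of MN and 17.3% of WSC tags of *Agrn*, a ratio of 1.59 (FDR 0.129), where 42.1% of the 458 windows tested passed FDR 0.1 and 2-fold. The window of the 24-nt exon held 8 MN and 20 WSC tags, under the coverage minimum of 10. With a minimum of 5 it was tested and passed, with 12.9% of MN and 4.73% of WSC tags, a ratio of 2.73 (FDR 0.0489). At this minimum 38.4% of 1091 windows passed, 367 of them higher and 52 lower in MN. With windows of 1000 nt the ratio of the 24-nt exon was 1.67, under 2-fold. Its window and that of the 33-nt exon cover parts of the same intron and share tags.

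*Lrp4*, the agrin receptor on the plus strand of chromosome 2 (chr2:91297668-91354058), had few tags. The WSC libraries had 6.78, 4.92, 6.82 and 5.51 CPM, from 19, 25, 32 and 10 tags. In MN it had 5 tags in all, 2 in line 6 and 3 in line 17, and 4 of 8 libraries had none. The pooled level was 3.11 CPM in MN (95% Poisson interval 1.01 to 7.26) and 5.97 CPM in WSC (4.78 to 7.38), and these intervals overlapped. In a fit without the low-count filter, *Lrp4* stood at -1.05 ± 0.61 (SE) in MN relative to WSC on the log2 scale (edgeR, FDR 0.212), where 21.7% of the 17565 genes passed and the median of all genes was -0.48. In WSC, 71 of 86 tags (82.6%) lay in exons, among them 37 in the terminal exon and 17 in the exon chr2:91317678-91321028. Of *Agrn*, *Lrp4* and *Dok7*, *Lrp4* had the largest and *Dok7* the smallest exonic share in all 4 WSC libraries.

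*Dok7*, the MuSK adaptor on the plus strand of chromosome 5 (chr5:35399462-35430488), was tagged mostly in its introns. The line 6 libraries had 13.1, 28.4, 9.09 and 11.2 CPM from 1, 2, 3 and 2 tags, and line 17 had 0, 7.79, 14.5 and 25.7 CPM from 0, 1, 1 and 18 tags. The WSC libraries had 22.1, 14.2, 14.5 and 13.2 CPM from 62, 72, 68 and 24 tags. The MN libraries lay on both sides of the WSC range. In the fit without the filter, *Dok7* stood at -0.12 ± 0.34 (SE) on the log2 scale (edgeR, FDR 0.841). Exons held 39 of 226 WSC tags (17.3%, Wilson interval 12.9 to 22.7%) and 2 of 28 MN tags (7.14%, 1.98 to 22.6%), both of the latter from line 17 replicate 4. With no minimum of tags, the mean exonic share was 1.59% in 7 MN and 17.1% in 4 WSC libraries. The exact permutation p of 0.00606 is the smallest these numbers of libraries can give. Apart from line 17 replicate 4, these MN libraries had at most 3 tags each, so their shares of 0% mean little. The intron chr5:35419917-35421679, which holds the YCAY-rich stretch, carried 89 WSC tags (39.4%) and 12 MN tags (42.9%), from 6 of 8 MN libraries and 4 of 4 WSC libraries. *Dok7* had no cassette exon entry, so these tags could not be set beside an inclusion rate.

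*Musk*, the kinase on chromosome 4 (chr4:58298834-58390290), had 2 tags in WSC and 0 of 1606472 in MN, which allows up to 1.87 CPM (3 tags over the group). *Rapsn*, the scaffold on chromosome 2 (chr2:90875777-90885886), had 0 tags in all 12 libraries, which allows up to 1.87 CPM in MN and 0.208 CPM in WSC. Neither can be compared between MN and WSC at this depth.

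Other genes of the pathway were taken from 8 lists with 55 symbols, in which *Mesdc2* and *Mesd* stand for the same gene. Of these symbols 53 had an RNA value, *Mesd* not among them, and 38 reached 1 RPKM in WSC. Of the 23 with enough CLIP tags, 6 were higher and 6 lower in MN (edgeR, FDR 0.01). Of all genes tested, 27.5% were higher, 29.2% were lower and 56.7% passed in either direction. Higher in MN were *Nrg1*, the nerve-derived neuregulin, by 1.60 ± 0.09 (SE), *Itgb1*, an integrin that binds agrin, by 1.17 ± 0.17, *Utrn*, a dystrophin relative of the postsynaptic membrane, by 0.74 ± 0.11 and *Cdc42*, a GTPase, by 0.60 ± 0.13, with *Fyn* and *Ncam1*. Lower in MN were *Erbb4*, a neuregulin receptor, at -1.002 ± 0.11, *Apc*, a scaffold of the Wnt pathway, at -0.70 ± 0.09, *Gfpt1*, an enzyme of amino sugar synthesis, at -1.003 ± 0.14 and *Ctnnb1*, beta-catenin, at -0.98 ± 0.17, with *Crk* and *Crkl*. All are log2 differences of MN minus WSC.

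By list, and against the same shares of 27.5% higher and 29.2% lower over all genes tested, those that act with MuSK inside the cell had 15 of 15 genes at 1 RPKM or more, and 2 of 12 tested were higher and 4 lower in MN, with a median log2 difference of -0.26. Agrin processing and binding had 6 of 7 genes at 1 RPKM, and 2 of 4 tested were higher and 0 lower. Of the LRP4 partners 5 of 8 reached 1 RPKM and 0 of 2 passed. The list of the synaptic basal lamina had 4 of 7 genes at 1 RPKM and 1 of 1 higher. That gene was *Utrn*, of the postsynaptic membrane, so no gene of the lamina itself was tested. The neuregulin branch had 3 of 4 at 1 RPKM with 1 of 2 higher and 1 lower. The glycosylation genes of congenital myasthenia had 4 of 4 at 1 RPKM, with 0 of 2 higher and 1 lower. The Wnt branch had 1 of 3 at 1 RPKM, and neither it nor the acetylcholine receptor subunits had a gene with enough tags. Of the astrocyte markers 3 of 3 tested were lower in MN (*Gfap*, *Aqp4* and *Slc1a2*), and of the motoneuron markers 3 of 3 were higher. Of the pan-neuronal markers 1 of 4 was higher (*Snap25*) and 0 of 4 lower, and of the oligodendrocyte markers 0 of 2 passed. Their part in these differences was not tested.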

How the data were processed

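The authors mapped CLIP reads to mm9 with Novoalign and deposited unique tags with positions, strand and a score. The authors' score was not used. Each tag was counted once, by its midpoint, on genes of GENCODE (the NCBIM37 reference, which is mm9). Trimmed reads of 74 nt were mapped by the authors with OLego and counted with Quantas. The deposited files hold read counts per gene, RPKM and junction counts per cassette exon. Exon positions were placed by matching the offsets in exon names to annotated exon ends (13108 of 13189). CLIP counts were tested with edgeR 4.0.16 (TMM, filterByExpr, quasi-likelihood, FDR 0.01) in 1 fit of line 6, line 17 and WSC. DESeq2 1.42.0 was an alternative. Exon and window tests were Fisher's exact tests, and shares over libraries were tested by exact permutation (scipy 1.17.1). The scripts were tested on simulated data. The RNA libraries held 72006019 and 65625173 reads on genes. Genes, exons and lists were chosen with earlier results of these data known; pathway genes with values are up to 4 per direction by FDR, and the others that passed are named only. A gene of these lists is not reported here and is left out of their counts. The edgeR and permutation p-values measure the spread between these libraries, which may be technical, and Fisher p-values cover counting error only.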

Additional observations from a re-analysis of the deposited data

Results flagged for a closer look

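Of 13 groups of 4 libraries examined for a library far from the others (Dixon's criterion, which chance meets in about 1 of 20 groups), 2 held one. *Dok7* had 22.1 CPM in WSC replicate 1, while the next library had 14.5. The share of *Agrn* tags in exons was 51.9% in WSC replicate 4, and the next lowest library had 61.5%. Without that library the exonic share was 20.8 percentage points lower in MN, compared with 18.2 with it.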

How the results depend on the processing

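The number of genes that differed between MN and WSC was 2637, and 1902 to 2990 with each library left out, 1096 with exons only and 3804 without the low-count filter. Same-numbered libraries of the lines correlated at 0.05 to 0.18, with 3 of 4 pairs over 0.1, and those of WSC and the lines at -0.07 to 0.06, so the numbers were not taken to pair all libraries. The replicate block gave 2223 and *Agrn* did not pass (0.45, FDR 0.201). Between the lines, 0 genes passed, 1 with DESeq2, 2 without the filter and 0 to 3 with each library left out, the 3 without line 17 replicate 4. *Agrn* stood at -0.14 in line 17 alone, with the other direction in line 6. *Dok7* changed sign among libraries left out (-0.83 to 0.06, with 0.056 without line 6 replicate 3 and 0.044 without WSC replicate 1), without passing. Of 458 windows tested, 193 passed (42.1%), 419 of 1091 with a coverage minimum of 5 (38.4%), 97 of 209 with 200 nt (46.4%) and 331 of 898 with 1000 nt (36.9%), so the counts moved with the number tested. The shares of *Agrn* tags kept their direction under all alternatives run, with 8.91 to 30.4 percentage points near cassette exons and -21.2 to -16.8 in exons when libraries were left out. With reads in the exon body, inclusion was 45.1% for the 87-nt, 12.7% for the 133-nt, 93.1% for the 12-nt and 59.6% and 65.0% for the 33-nt exon, since each body read counts as inclusion. Scaled to 1000000 reads and not to length, *Agrn* had 82.0, *Lrp4* 46.6, *Dok7* 26.2, *Rapsn* 0.265 and *Musk* 0.0735, so that *Lrp4* lay above *Dok7*.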
